A study of Homo sapiens with 2 samples.

Results

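The metallothioneins examined here were the 8 protein-coding genes MT1A, MT1E, MT1F, MT1G, MT1H, MT1M, MT1X and MT2A, taken by gene symbol from the 58174 genes listed in both libraries. The libraries came from PLC-8024, an established hepatocellular carcinoma cell line. One library was made from PLC-8024-GDF1 cells, stably transduced with lentivirus that carried GDF1, a secreted ligand of the TGF-beta superfamily, and the other from PLC-8024-CTR cells, transduced with the control vector. Both lines were selected with puromycin and grown in serum-supplemented medium, and whether either line was a single clone is not given in the sources used here. Each condition had 1 library, so every difference below describes these 2 libraries and has no replicate check, SD or p-value.

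Values were TPM, a level in transcripts relative to all transcripts of the library and corrected for gene length that summed to 999990 in PLC-8024-CTR and 999995 in PLC-8024-GDF1, so that it keeps no read depth, and the depth is not given in the sources used here. A value of 0.0001 stands for 0 in both libraries, and wherever a pair of levels is given, PLC-8024-CTR comes first. CERS1, which shares its transcript with GDF1, was at 13.3 TPM in PLC-8024-CTR and at 9612 TPM in PLC-8024-GDF1, and the GDF1 entry itself was at 2.096 and 4.644 TPM. Of 9 hepatocyte markers all 9 reached 1 TPM, and 5 of them were past 2-fold lower in PLC-8024-GDF1, with a median log2 change of -1.02. Over all genes that reached 1 TPM, 9.61% were past 2-fold lower. APOA1, AFP, ALB, TTR and HNF4A were those past 2-fold, and the highest, SERPINA1, was at 5308 and 2915 TPM. The authors count AFP among liver progenitor markers, which they report as induced by GDF1 in qPCR of PLC-8024 cells. They also report a shift of such markers in western blots, stained xenograft tumours, coculture and with recombinant GDF1. Hepatic markers, with ALB and TTR among them, they report as inhibited, and both were lower here. Here AFP was at 31.4 and 9.75 TPM. The count of 5 was 3 with rescaling to the median or with the GC or length trend removed. The summed level of the 9 was 8527 and 6168 TPM, and SERPINA1 alone fell by more TPM than this sum. KRT8 and KRT18 went the other way, at 1424 and 1777 TPM and at 1005 and 1224 TPM. Of the markers of other cell types, 1 of 6 fibroblast genes, COL3A1, reached 1 TPM, with a list sum of 3.80 and 2.61 TPM. The same held for 1 of 6 leukocyte genes, LYZ, with a list sum of 298.8 and 214.7 TPM, and for 1 of 4 endothelial genes, PECAM1, with 23.5 and 22.4 TPM. The defining leukocyte marker PTPRC and the endothelial markers VWF and KDR were listed at 0 in both libraries. Summed hepatocyte marker RNA, through SERPINA1, and summed metallothionein RNA were both lower in PLC-8024-GDF1. Any part of the former in the latter was not tested.

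Metallothioneins are small cytosolic proteins whose many cysteines hold zinc and copper, and also cadmium. Their genes are switched on when free zinc rises, through the zinc-sensing factor MTF1, which binds metal response elements ahead of the genes, and glucocorticoids, oxidants and inflammatory cytokines induce them too. The liver is a main site of their synthesis, and lower metallothionein RNA than in the surrounding liver is a well known trait of hepatocellular carcinoma.

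The coding sequences of the 2 most abundant members, MT1X and MT2A, are shown for their dense cysteine codons and for the sequence they share. Both are on chromosome 16, plus strand, in GRCh37, where the MT1X gene (ENSG00000187193) spans 56716382 to 56718108 and the MT2A gene (ENSG00000125148) spans 56642496 to 56643409. The sequences are spliced from the coding exons, which lie between 56716453 and 56717961 for MT1X and between 56642568 and 56643266 for MT2A. Capitals mark the cysteine codons, TGC or TGT.
MT1X: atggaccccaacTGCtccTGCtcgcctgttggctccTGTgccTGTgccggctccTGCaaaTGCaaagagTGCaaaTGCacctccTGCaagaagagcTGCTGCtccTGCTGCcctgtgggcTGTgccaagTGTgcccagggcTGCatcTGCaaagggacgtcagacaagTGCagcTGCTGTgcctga
MT2A: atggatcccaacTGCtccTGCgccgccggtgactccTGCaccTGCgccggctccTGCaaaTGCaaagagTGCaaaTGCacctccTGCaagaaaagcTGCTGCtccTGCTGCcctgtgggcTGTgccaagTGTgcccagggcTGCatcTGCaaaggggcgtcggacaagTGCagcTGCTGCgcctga
Each of the 8 members had a coding sequence of 186 bases, with 20 cysteine codons among 61. The transcript taken for each gene was the one nearest to 61 codons, so the equal length partly follows from that choice. The 28 pairs of members were identical at 88.7% to 95.2% of coding bases, with a median of 91.9%. MT1X and MT2A differed at 14 bases and shared an unbroken run of 63 bases.

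MT1X was the main metallothionein in both libraries and fell in PLC-8024-GDF1. It was at 73.4 TPM in PLC-8024-CTR and at 32.5 TPM in PLC-8024-GDF1, a ratio of 0.443. MT2A, the other ubiquitous isoform of liver cells, was next at 15.4 and 11.3 TPM, a ratio of 0.729, which did not pass the 2-fold threshold. The 8 members together were at 90.4 TPM in PLC-8024-CTR and at 45.9 TPM in PLC-8024-GDF1, a difference of 44.5 TPM and a ratio of 0.507. In bulk RNA, fewer cells that express a gene and less of its RNA per cell cannot be told apart.

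**Figure D1:**
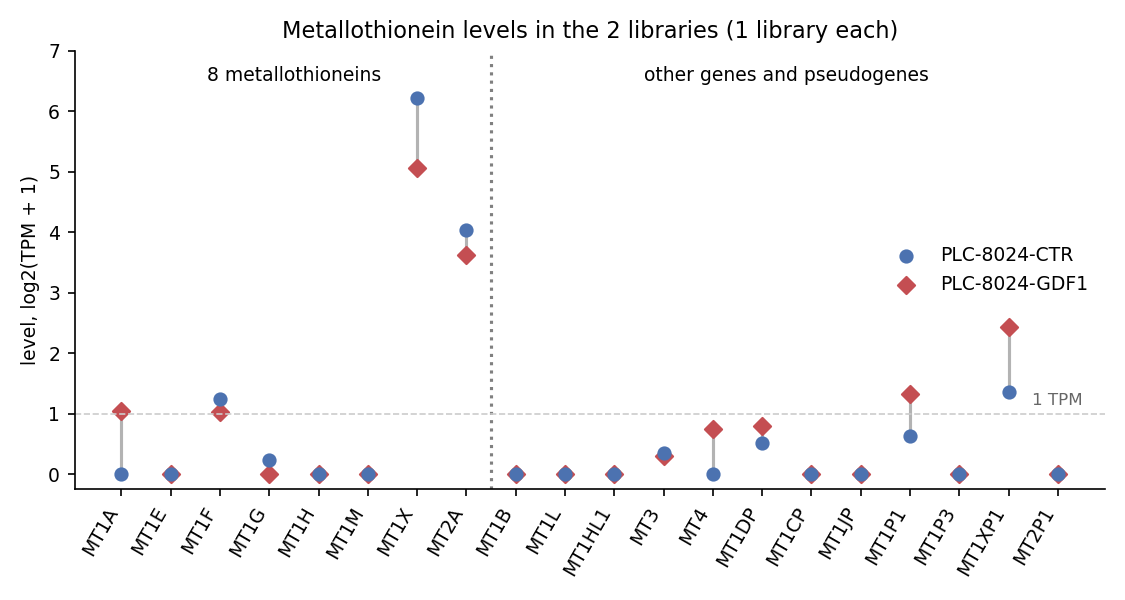
Points give the level of each metallothionein as log2(TPM + 1) in PLC-8024-CTR (circles) and PLC-8024-GDF1 (diamonds), 1 library each and so without error bars, with the 8 members on the left and the other 12 metallothionein genes and pseudogenes on the right. MT1X and MT2A stand above all others, MT1X is lower in PLC-8024-GDF1 (73.4 against 32.5 TPM), and the pseudogene MT1XP1 is higher (1.57 against 4.38 TPM).

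A change was called past 2-fold where log2((TPM + 1)/(TPM + 1)), PLC-8024-GDF1 over PLC-8024-CTR, lay beyond 1 or -1 in a gene that reached 1 TPM in either library. On this scale, which understates the change of low genes, MT1X was at -1.15, MT2A at -0.42 and MT1F at -0.21. Of the 8 members, 4 reached 1 TPM. Among these 4, MT1X fell, MT1A was past the threshold upwards from a library that listed it at 0, and 2 stayed within 2-fold, at a median of -0.31. Leaving out MT1A, the 3 others had a median of -0.42. Over all 14929 genes that reached 1 TPM, 9.61% fell past 2-fold, 4.82% rose and 14.4% did either, and the median was -0.20. A count of 1 among 4 members is too small to set apart from those shares.

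Rescaling both libraries to a median log2 ratio of 0 over genes with at least 5 TPM removed a median log2 ratio of -0.21. MT1X stood at -0.95, just inside the threshold, and at -0.97 with rescaling to the upper quartile. With the trend of GC content over protein-coding transcripts removed it stood at -0.96. Under the former rescaling 1040 genes rose and 1022 fell past 2-fold, against 720 and 1434 without it. Without rescaling and with the pseudocount of 1, 6.62% of expressed genes had a lower change than MT1X. On the same scale 35.4% lay below MT2A and 49.5% below MT1F. The place of MT1X depends on the pseudocount. With a pseudocount of 0.1 it was at -1.17, and 2315 genes fell past 2-fold, against 1434.

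**Figure D2:**
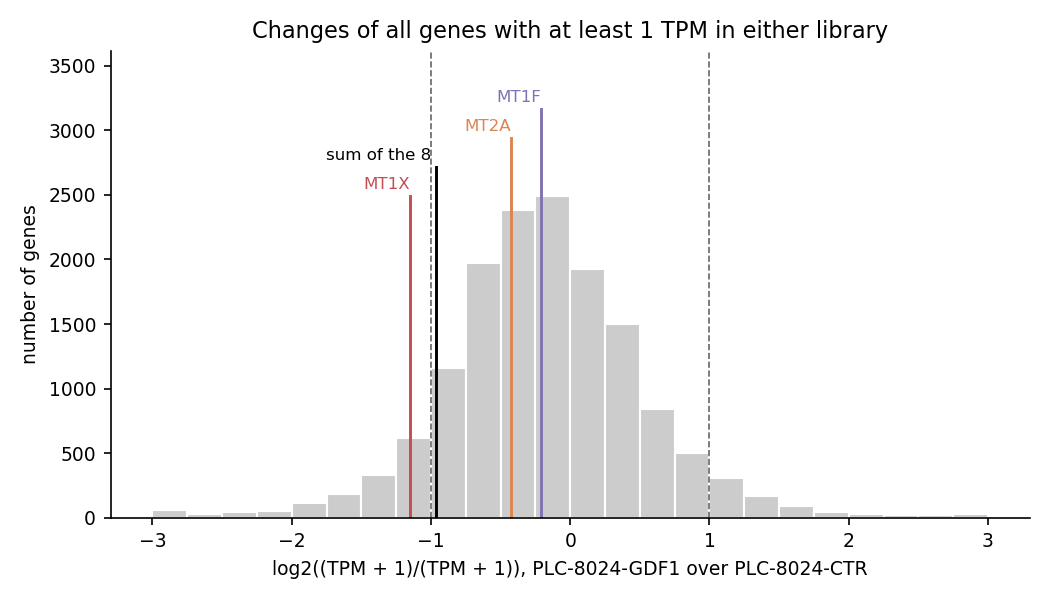
Grey bars count the 14929 expressed genes by their log2 change, the end bars also holding genes beyond the axis, and dashed lines mark 2-fold. MT1X at -1.15 lies beyond the lower line, the sum of the 8 members at -0.96 just inside it, and MT2A and MT1F near the bulk of genes.

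The ranking of the members differed between the libraries below the first 2 places. In PLC-8024-CTR, MT1X was 4.75 times as high as MT2A, MT2A was 11.4 times as high as MT1F, and MT1F 7.45 times as high as MT1G. In PLC-8024-GDF1, MT1X was 2.89 times as high as MT2A, MT2A was 10.7 times as high as MT1A, and MT1A and MT1F were nearly level at a ratio of 1.01. MT1X thus held 81.2% of the summed TPM in PLC-8024-CTR and 70.9% in PLC-8024-GDF1, while MT2A held 17.1% and 24.6%. Placed among all expressed genes, MT1X was higher than 88.1% of them in PLC-8024-CTR and than 79.1% in PLC-8024-GDF1, whereas MT2A moved only from 63.2% to 60.6%.

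The remaining members were at or near the limit of what the files list. MT1F (ENSG00000198417, chromosome 16, 56691643 to 56694610) was at 1.36 and 1.04 TPM. MT1A (ENSG00000205362, 56672578 to 56673999) was listed at 0 in PLC-8024-CTR and was at 1.05 TPM in PLC-8024-GDF1, so no fold is given. MT1G (ENSG00000125144, 56700642 to 56701977, minus strand), often highly expressed in liver, was the reverse, at 0.18 TPM in PLC-8024-CTR and listed at 0 in PLC-8024-GDF1. MT1E, MT1H and MT1M were listed at 0 in both libraries. As TPM keeps no read depth, the limit that these zeros allow cannot be given.

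Because the paralogs share long stretches of sequence, reads of one can be counted for another, so sums are given too. How far this applies depends on the read length, which is not given in the sources used here for these paired-end reads. Of all 50-base windows of the MT1X coding transcript, 18.0% also occurred in the transcript of another family gene, compared with 10.2% for MT2A, 6.12% for MT1F, 5.76% for MT1A and 20.2% for MT1G. At 75 bases the share was 8.18% for MT1X, from MT1G and the pseudogene MT1XP1, and 0 for MT2A, MT1F and MT1A. At 100 bases only MT1H of the 8 members shared any window, 3.36%, with MT1HL1. The log2 change of the sum of the 8 members was -0.96, and that of the 7 members without MT1X was -0.32, from 17.0 to 13.4 TPM. MT1X plus MT2A went from 88.9 to 43.8 TPM, at -1.005. Most of the difference in the sum was therefore that of MT1X.

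Of the metallothionein pseudogenes, MT1XP1 is named for its likeness to MT1X (ENSG00000233929). It is a processed pseudogene on chromosome 1 at 16567708 to 16567893 of GRCh37, minus strand. It is shown with capitals at the 7 bases that differ from the MT1X coding sequence printed above, to which it was 96.2% identical, with a shared run of 87 bases.
MT1XP1: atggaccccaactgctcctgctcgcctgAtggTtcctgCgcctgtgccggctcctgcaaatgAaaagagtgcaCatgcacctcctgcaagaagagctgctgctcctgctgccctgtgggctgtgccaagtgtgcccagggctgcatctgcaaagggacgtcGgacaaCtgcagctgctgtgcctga
MT1XP1 moved in the opposite direction to MT1X, from 1.57 to 4.38 TPM, and rose by 1.07 on the log2 scale. With the length trend removed this rise was not past 2-fold. Of its 50-base windows 27.7%, and of its 75-base windows 11.6%, also occurred in transcripts of other family genes, MT1X among them. Its reads may therefore not be told apart from theirs. Another processed copy, MT1P1 on chromosome 9, was at 0.556 and 1.50 TPM, a log2 change of 0.68, and the pseudogene MT1DP was at 0.423 and 0.730 TPM. Adding MT1XP1 to MT1X gave 75.0 and 36.9 TPM, a log2 change of -1.004, just past 2-fold, and adding MT1P1 as well gave 75.5 and 38.4 TPM, at -0.96, just inside it. With the 20 genes and pseudogenes that the files list under a metallothionein symbol added, the sum went from 93.2 to 53.4 TPM, at -0.79. The 3 pseudogenes MT1XP1, MT1P1 and MT1DP took 2.55 and 6.61 TPM of this, and the sum with them was still lower in PLC-8024-GDF1.

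Of the other metallothionein genes, MT3, the brain isoform, was at 0.275 and 0.238 TPM. MT4, the isoform of squamous epithelium, was listed at 0 in PLC-8024-CTR and was at 0.682 TPM in PLC-8024-GDF1. MT4 overlaps BBS2 on the opposite strand, and since the use of strand in the counting is not given in the sources used here, reads of the pair may not be told apart. The other 7, namely MT1B, MT1L, MT1HL1, MT1CP, MT1JP, MT1P3 and MT2P1, were listed at 0 in both libraries. So was the pseudogene MT1IP, which the files list as AC026461.4 (ENSG00000275691) and which is not among the 20.

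The 250 bases ahead of the gene start are shown for MT1X, MT2A and MT1H, the 3 members with an entry in the RefSeq promoter table (assembly GRCh38.p14), since MTF1 binds metal response elements ahead of these genes. Capitals mark matches on either strand to TGCACNC or TGCGCNC, the core of the metal response element.
MT1X, chr16:56682220-56682469, plus strand: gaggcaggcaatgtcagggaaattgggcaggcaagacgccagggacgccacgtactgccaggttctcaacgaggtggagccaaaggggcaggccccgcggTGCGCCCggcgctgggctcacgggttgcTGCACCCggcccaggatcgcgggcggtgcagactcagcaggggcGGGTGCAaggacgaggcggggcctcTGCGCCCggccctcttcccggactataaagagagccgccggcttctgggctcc
MT2A, chr16:56608334-56608583, plus strand: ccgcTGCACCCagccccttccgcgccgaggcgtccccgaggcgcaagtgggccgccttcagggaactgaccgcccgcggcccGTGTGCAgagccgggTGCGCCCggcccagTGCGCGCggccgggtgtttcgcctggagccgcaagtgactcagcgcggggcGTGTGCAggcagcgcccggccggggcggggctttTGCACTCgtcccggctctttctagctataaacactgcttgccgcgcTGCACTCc
MT1H, chr16:56669564-56669813, plus strand: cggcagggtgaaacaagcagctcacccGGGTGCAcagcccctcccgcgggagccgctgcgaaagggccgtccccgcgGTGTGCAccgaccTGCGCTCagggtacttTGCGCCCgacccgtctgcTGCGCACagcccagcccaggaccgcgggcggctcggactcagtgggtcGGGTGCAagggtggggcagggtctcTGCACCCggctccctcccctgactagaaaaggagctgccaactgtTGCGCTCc
MT1X held 4 matches, MT2A 7 and MT1H 8. Among 35114 promoters of the same length, 24.8% held at least 1 match, 0.370% at least 4 and 0.0313% at least 7. MT1X, which fell, had the fewest matches of the 3, and MT1H, with the most, was listed at 0 in both libraries. Outside the members, MT1B and MT4 had an entry too, with 3 matches each, and both were under 1 TPM in both libraries. Only 3 of the 8 members had an entry, and a relation of matches to levels was not tested. A match is a string of letters and not evidence of binding.

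The same windows were searched for other short motifs on both strands, except that TATAAA was read on the gene's strand. TATAAA occurred once in MT1X and once in MT2A, against 6.80% of all promoters, and not in MT1H. The antioxidant element TGACNNNGC occurred once in MT1X and once in MT2A, against 10.9% of all promoters. The GC box GGGCGG occurred 2 times in MT1X, 2 times in MT2A and once in MT1H, and in 42.6% of all promoters. For the SMAD factors that relay TGF-beta superfamily signals, the palindrome GTCTAGAC was in none of the 3 windows and in 0.182% of all promoters. The shorter CAGAC was in MT1X and MT1H but not MT2A, and in 38.005% of all promoters.

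The members lie in a cluster on chromosome 16 that spans 56598985 to 56718108 of GRCh37 and holds 15 of these 20 metallothionein genes and pseudogenes. Within 500 kb there were 35 other genes, of which 11 reached 1 TPM, and their median log2 change was 0.31, with a range from -1.08 to 1.27. Of these 11, 2 rose and 1 fell past 2-fold, where 4.82% of all expressed genes rose and 9.61% fell. Counts this small cannot be set apart from those shares. CPNE2 rose from 11.2 to 28.5 TPM and NLRC5, the transactivator of MHC class I genes, from 2.05 to 5.91 TPM. OGFOD1, a ribosomal protein hydroxylase, fell from 6.36 to 2.49 TPM, a change of -1.08 that was inside 2-fold under both rescalings (-0.93 and -0.94) and with the GC (-0.72) or length (-0.77) trend removed. The nearest expressed genes outside the cluster were OGFOD1 before it and, after it, NUP93, a nuclear pore protein, at 43.1 and 55.1 TPM, a log2 change of 0.35. BBS2, of the ciliary BBSome, overlaps the start of the cluster and was at 6.39 and 9.67 TPM, a log2 change of 0.53.

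Genes that handle zinc were mostly within 2-fold, as were all expressed genes, of which 14.4% were past it. The counts below are too small to set apart from that share. MTF1, the zinc sensor that drives metallothionein genes, was low in both libraries, at 1.33 and 0.88 TPM, with a log2 change of -0.31. SLC30A1, the zinc exporter of the cell surface and another known MTF1 target, was at 5.10 and 2.76 TPM, a log2 change of -0.70. Of the 8 expressed zinc exporters none passed 2-fold, at a median of -0.46, though 2 fell past it with the plain TPM ratio. Of the 11 expressed zinc importers SLC39A10 fell, from 1.97 to 0.34 TPM (log2 -1.15, and -0.70 or -0.84 with the GC or length trend removed), and none rose, at a median of -0.07. The highest of them, SLC39A7, which releases zinc from the endoplasmic reticulum, was at 356.9 and 400.7 TPM. The 6 factors of metal-responsive transcription, the highest being USF2 at 195.4 and 180.2 TPM, all stayed within 2-fold.

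Copper handling showed 1 fall and 1 apparent rise among 12 expressed genes, at a median of -0.22. Of all expressed genes 9.61% fell and 4.82% rose. ATP7B, the copper-exporting ATPase of hepatocytes, fell from 5.25 to 1.85 TPM, a change of -1.14 that was -0.98 with the GC trend and -0.80 with the length trend removed. SCO2, a copper chaperone of cytochrome oxidase, passed the threshold upwards under one identifier, from 1.82 to 56.1 TPM. A second identifier of the same symbol went from 74.8 to 28.4 TPM, and both added gave 76.6 and 84.6 TPM, within 2-fold. SOD1 and ATOX1, the most abundant copper genes, were at 615.9 and 470.7 TPM and at 511.5 and 679.9 TPM.

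Among the lists of genes that respond to inducers of metallothioneins, falls were most numerous in the list of metal and heat stress genes. This list also holds genes of the oxidant response. Of these 11, 5 fell and none rose, at a median of -0.83, where 9.61% of all expressed genes fell. With the GC or length trend removed 2 of the 5 stayed past 2-fold, TXNRD1 and HSPH1, and these and GCLM did so under both rescalings. TXNRD1, thioredoxin reductase, fell from 13.1 to 0.99 TPM, or by 2.83 on the log2 scale. The chaperone HSPH1 went from 18.8 to 5.45 TPM, the glutathione synthesis gene GCLM from 8.33 to 2.85 TPM, the peroxiredoxin repair gene SRXN1 from 19.6 to 8.38 TPM and the cystine carrier SLC7A11 from 3.33 to 1.06 TPM. HMOX1, heme oxygenase and a classical cadmium-induced gene, was at 88.5 and 75.8 TPM. The most abundant, HSPA1A, a heat shock gene, was at 153.8 and 117.0 TPM, and both stayed within 2-fold. Of 9 expressed glucocorticoid receptor and response genes 2 rose and none fell, at a median of -0.12, where 4.82% of all expressed genes rose. With a pseudocount of 0.1 or the plain TPM ratio 2 rose and 2 fell. FKBP5 rose from 0.58 to 4.31 TPM and SGK1 from 1.77 to 5.19 TPM, while the receptor NR3C1 was at 5.19 and 2.49 TPM and DUSP1, the highest, at 100.9 and 51.3 TPM.

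The IL6-STAT3 and acute phase list had 2 falls and 1 rise among 10 expressed genes, at a median of -0.45. With a pseudocount of 0.1 or the plain TPM ratio it had 3 falls and 2 rises. Of all expressed genes 9.61% fell and 4.82% rose, and counts this small cannot be set apart from those shares. The receptor genes IL6R and IL6ST fell, from 18.0 to 2.45 TPM and from 3.90 to 0.02 TPM, and LCN2, lipocalin 2, rose from 3.39 to 18.3 TPM. The factor itself, STAT3, was at 13.9 and 13.6 TPM, and fibrinogen FGB, the highest of the list, at 1991 and 1517 TPM.

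MT1X and MT2A kept their direction under every scaling and trend correction run, as did the sum under every scaling. MT1X alone of the 3 changed its side of the 2-fold threshold. Over these settings MT1X ranged from -1.43 to -0.95 and MT2A from -0.69 to -0.23.

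**Figure D3:**
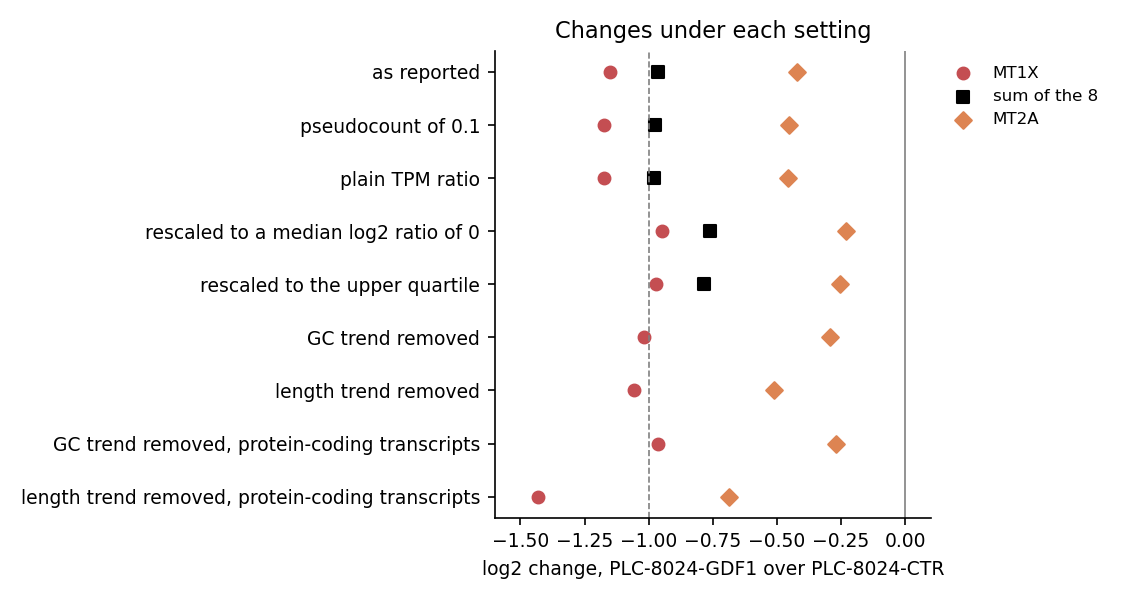
Points give the log2 change of MT1X, of MT2A and of the summed 8 members under each setting, the sum having no value under the trend corrections, and the dashed line marks 2-fold. MT1X crosses the line in both rescalings and in 1 GC correction, and no point crosses 0.

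The genes whose 2 levels lay nearest to the sum of the 8 members, by the distance of log2(TPM + 1) over 2 libraries and among 5314 candidates, were PLIN2, a lipid droplet coat protein, at 88.8 and 45.1 TPM, the mitochondrial ribosomal gene MRPL46 at 91.1 and 47.0 TPM, and the lysosomal gene LAPTM4A at 87.8 and 46.1 TPM. With 2 libraries this likeness of levels is a description only.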

How the data were processed

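RNA was measured by RNA sequencing in 2 libraries, 1 of PLC-8024-CTR and 1 of PLC-8024-GDF1 cells, grouped by the deposited labels. Per the submitters' processing notes, the authors used FastQC 0.11.2, Trimmomatic 0.36, HISAT2 2.1.0, bedtools 2.26.0 and StringTie 1.3.3b with the human build hg19 (GRCh37), and deposited 1 TPM value per Ensembl gene, with 0.0001 standing for 0. The methods name a RefSeq annotation whereas the files carry Ensembl identifiers. TPM keeps no read depth, so no counting interval or count test was possible, and with 1 library a condition no test was run.

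Both tables were joined on the identifier. Changes were log2((TPM + 1)/(TPM + 1)) over genes that reached 1 TPM in either library, and a call was a change past 2-fold. The calling step was run on simulated data with 200 planted changes, of which 100% were recovered. The planted changes were set well past 2-fold in genes with at least 5 TPM in PLC-8024-CTR. Their recovery therefore checks the code only, and not calls near the threshold or in low genes. Positions and coding sequences came from GENCODE 44 lifted to GRCh37, which held 55726 of the 58174 identifiers, and promoters from RefSeq. Coding sequences were taken from 1 annotated transcript a gene, the one whose codon count lay nearest to 61. Python 3.11.15, numpy 2.4.6, pandas 2.3.3, statsmodels 0.14.6 and matplotlib 3.10.9 were used.

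The members and gene lists were chosen with earlier results of these data known. Named were all metallothionein genes, MTF1, SLC30A1, genes of the lists past 2-fold and each list's highest gene, the flanking genes and called neighbours of the cluster, and the 3 genes nearest in level to the sum. Outside this rule, KRT8, KRT18, PTPRC, VWF, KDR, HMOX1, NR3C1, STAT3, SCO2's second identifier and ATOX1 were named after their values were seen. Alternatives were other pseudocounts, filters and scalings, trends of GC content and length, and summed paralogs. The trends over protein-coding transcripts and the sums over all family genes or without MT1X were chosen after seeing the data.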

Additional observations from a re-analysis of the deposited data

How the results depend on the processing

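No paired analysis was possible because neither condition had more than 1 library, and no library could be left out. MT1X, MT2A and the sum of the members kept their direction in all alternatives. The number of members that fell was 1 as reported, and 0 under both rescalings and with the paralogs summed. The number that rose was 1 as reported, and 0 with at least 5 TPM, with the length trend removed and with the paralogs summed. MT1F reversed to 0.019 with the GC trend removed over protein-coding transcripts. Of all genes, 1434 fell as reported, 2315 with a pseudocount of 0.1, 2437 with the plain ratio, 885 with the GC trend removed and 903 with the length trend removed, while 720 rose as reported, 1167 with a pseudocount of 0.1, 1229 with the plain ratio and 471 with at least 5 TPM. In the lists other than those of metallothioneins and cell type markers, 9 genes fell as reported. That count was 14 with the plain ratio, 4 with the GC trend removed and 4 with the length trend removed. Of the cluster's neighbours 1 fell as reported, and 0 under both rescalings and with either trend removed. The cause of these shifts was not tested. TPM keeps no read depth, so values near 0 cannot be bounded.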
